A study of Mus musculus with 10 samples.

Results

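A set of 9 genes that hold back the protein kinase complex mTORC1 or the cap-binding step of translation that it controls were followed in the liver RNA of fed and starved mice. They are Ddit4 and Ddit4l, the sestrins Sesn1, Sesn2 and Sesn3, the mTOR-binding subunit Deptor, and the 4E-binding proteins Eif4ebp1, Eif4ebp2 and Eif4ebp3, which make 9 of 23420 genes counted. They were taken by symbol, and the set was chosen by its starved-to-fed fold changes, in which Ddit4 and Eif4ebp3 were the 10th and 20th highest of 12796 tested genes. That contrast is therefore given for the members as a description, without p-values. The livers came from male C57BL/6 mice aged 4 months, 5 fed standard chow and 5 left without food but with water for 48 hours, and each liver gave 1 total RNA library with its strand marked. The labels name no mutation or drug for either group. They speak of pairs of mice but do not say which fed mouse was paired with which starved one.

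mTORC1 sits on the lysosome and, when amino acids and insulin signals are plentiful, phosphorylates proteins that raise translation and ribosome production and lower autophagy. Insulin acts by switching off the TSC complex, which otherwise keeps the GTPase RHEB inactive, and amino acids act through the RAG GTPases and the GATOR complexes. DDIT4 (also called REDD1) and its relative DDIT4L favour TSC activity, sestrins bind GATOR2 and so hold RAG signalling down, and DEPTOR binds mTOR itself. The 4E-binding proteins are substrates of mTORC1: in the unphosphorylated state they occupy the cap-binding protein eIF4E and keep it from assembling with eIF4G, so they act as brakes when the kinase is inactive. The liver is exposed to wide swings of insulin and amino acids between meals, and low mTORC1 activity is known to accompany fasting there.

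Reads assigned to genes came to 23.0 to 29.9 M per fed library and 18.2 to 28.1 M per starved library, and levels are given as scaled counts per M reads (CPM). Over the 500 most variable genes, starved libraries 2 and 4 stood apart, at 44.8 and 38.9 on the first principal component (83.5% of variance), where the other 3 starved libraries lay between 11.7 and 13.3 and the fed libraries between −25.9 and −22.9. Where leaving out these 2 libraries changed a call or a value by over 1.5 times, both values are given. This holds for the members and for called genes whose log2 fold change is printed. The hepatocyte markers, 8 of 8 detected, summed to 122305 to 168022 CPM in fed and 132907 to 189898 CPM in starved libraries, which fits the label of liver. Of 9 Kupffer cell markers 8 fell and 0 rose, and their sum went from 449 to 727 CPM in fed to 196 to 383 CPM in starved libraries. The 5 neutrophil markers found summed to 3.58 to 5.64 CPM in fed libraries and to 9.88, 21.1, 11.8, 24.9 and 4.06 CPM in starved libraries 1 to 5, with Mpo almost absent (4 reads in all). Of the 4 tested, S100a8, S100a9 and Retnlg rose. Csf3r did not pass (log2 fold change 0.11 ± 0.25 SE, and −0.09 without starved libraries 2 and 4). The 6 cholangiocyte markers summed to 46.5 to 57.4 CPM in fed livers, 35.8 to 40.8 CPM in starved livers 1, 3 and 5, and 16.1 and 15.0 CPM in starved livers 2 and 4, but most of this sum was Spp1 (47.2 CPM in fed, 12.0 and 12.6 CPM in starved livers 2 and 4). Of the 5 tested, Spp1 alone fell (log2 fold change −0.96 ± 0.29 SE, and −0.53 without starved libraries 2 and 4) and 4 did not pass. Among these 4, Epcam (0.43 ± 0.29) and Sox9 (0.10 ± 0.30) were higher in the starved mean. Without starved libraries 2 and 4, Epcam was called higher (0.59, edgeR, adjusted p = 0.0413) and Sox9 was at 0.46 and not called. In bulk tissue, fewer cells of a type and less RNA per cell cannot be told apart, and the part of other cells in the values of the members was not tested.

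Of the 9 members, all of which passed the low-count filter, 5 were called higher and 3 lower in starved liver at an adjusted p under 0.05, where 18.6% of all tested genes were called higher and 20% lower (38.6% in either direction). The groups did not overlap for 5 members, beside 29.9% of all tested genes. Of these 5, 3 were higher and 2 lower in starved liver, beside 13.2% and 16.7% of all tested genes. Since the members were proposed with this contrast in view, nothing is read from these counts. Without starved libraries 2 and 4, 5 members were again called higher and 3 lower. The median log2 fold change of the members was 0.79, beside 0.00346 for all tested genes.

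**Figure D1:**
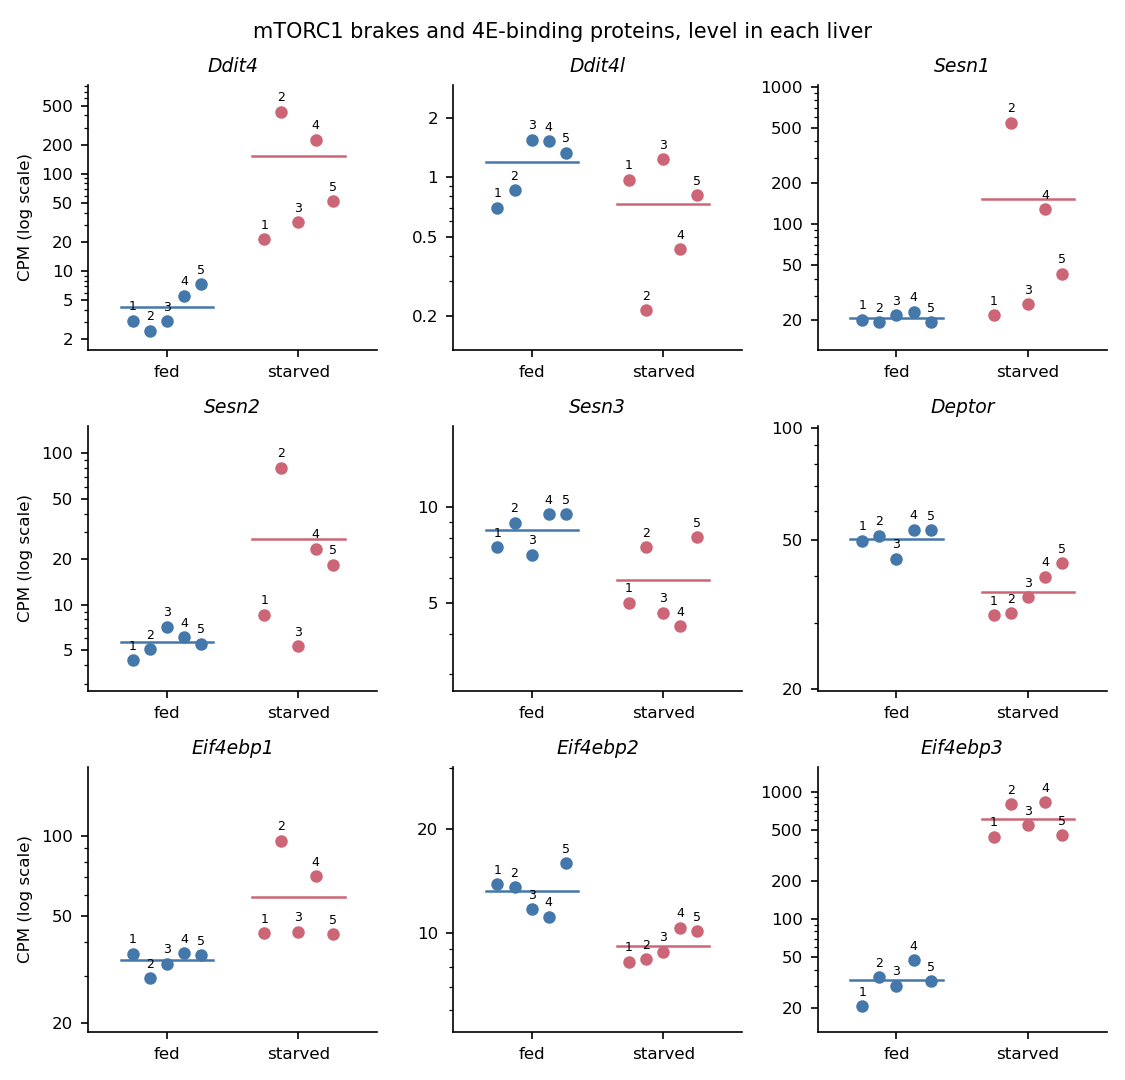
Level of each of the 9 genes in every liver, in CPM on a log axis, with fed livers in blue, starved livers in red, the library number above each point and the group mean as a line. Eif4ebp3, Ddit4 and Eif4ebp1 were above every fed liver in all 5 starved livers, and the highest levels of these 3 genes and of Sesn1 and Sesn2 were in starved libraries 2 and 4.

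Ddit4, on chromosome 10 (59949669 to 59951834, mm10, minus strand), encodes a short-lived protein made in stress that lets the TSC complex act. Fed libraries 1 to 5 held 3.09, 2.45, 3.05, 5.58 and 7.37 CPM, and starved libraries 1 to 5 held 21.3, 437, 31.8, 226 and 52.4 CPM. All 5 starved livers were above all fed livers, and libraries 2 and 4 were far above the other starved ones. The single livers stood at 4.95 to 102 times the fed mean, and the log2 fold change was 5.16 ± 0.86 (SE), against 3.05 ± 0.33 without libraries 2 and 4. Ddit4l, on chromosome 3 (137621612 to 137628333, plus strand), encodes the related protein DDIT4L and was barely detected, with 4 to 44 reads per library. It stood at 0.70, 0.86, 1.54, 1.51 and 1.33 CPM in fed libraries and at 0.97, 0.21, 1.23, 0.43 and 0.81 CPM in starved libraries. The groups overlapped, and the lowest values were those of starved libraries 2 and 4, the same livers that were highest for Ddit4. Its log2 fold change was −0.69 ± 0.39 (SE), and −0.21 ± 0.30 without these libraries, so no difference beyond the spread between livers was seen at this depth.

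The promoters of Ddit4, Sesn1 and Sesn2 are shown because these 3 genes had their highest levels in the same starved livers, 2 and then 4. Eif4ebp1 was also highest in liver 2 and then 4, but no promoter was found for it. Each window runs from 250 bases before to 50 after a transcription start in RefSeq (GRCm38.p6, the build of mm10), written 5′ to 3′ on the strand of the gene, and Sesn1 has 2 such starts. Capitals mark the letters ACGTG (the core of the hypoxia response element), GTAAACA (a FOXO element) and CCAAT (the CCAAT box), each on either strand.
Ddit4, chr10:59951721-59952020 (- strand): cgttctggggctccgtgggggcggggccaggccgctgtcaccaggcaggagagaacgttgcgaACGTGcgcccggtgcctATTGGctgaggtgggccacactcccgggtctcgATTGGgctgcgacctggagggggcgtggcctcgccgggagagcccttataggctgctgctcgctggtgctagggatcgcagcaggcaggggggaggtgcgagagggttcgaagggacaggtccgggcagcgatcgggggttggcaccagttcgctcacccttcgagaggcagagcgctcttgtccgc
Sesn1, chr10:41810324-41810623 (+ strand): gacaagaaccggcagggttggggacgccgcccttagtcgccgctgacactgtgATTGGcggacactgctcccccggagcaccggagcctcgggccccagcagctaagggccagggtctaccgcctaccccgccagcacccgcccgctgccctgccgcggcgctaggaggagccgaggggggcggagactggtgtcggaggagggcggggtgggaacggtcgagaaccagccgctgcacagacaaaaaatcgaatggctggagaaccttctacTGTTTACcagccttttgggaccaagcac
Sesn1, chr10:41887189-41887488 (+ strand): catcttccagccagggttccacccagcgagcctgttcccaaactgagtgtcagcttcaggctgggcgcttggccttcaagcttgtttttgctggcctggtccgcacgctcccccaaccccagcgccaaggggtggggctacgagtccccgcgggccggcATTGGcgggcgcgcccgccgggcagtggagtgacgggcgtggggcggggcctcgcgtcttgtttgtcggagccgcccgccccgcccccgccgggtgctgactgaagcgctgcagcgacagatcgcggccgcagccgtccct
Sesn2, chr4:132510407-132510706 (- strand): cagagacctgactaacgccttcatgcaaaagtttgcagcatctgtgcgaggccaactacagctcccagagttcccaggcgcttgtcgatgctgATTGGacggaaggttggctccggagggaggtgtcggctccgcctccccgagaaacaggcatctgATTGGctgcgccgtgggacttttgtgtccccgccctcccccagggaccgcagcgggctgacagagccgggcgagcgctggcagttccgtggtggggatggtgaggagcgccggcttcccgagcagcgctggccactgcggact
Promoters were found for 6 of the 9 members (7 windows), those of Eif4ebp1, Eif4ebp3 and Deptor not being among them. CCAAT was matched 2 times in the window of Ddit4 (positions −170 and −137 from the start) and 2 times in that of Sesn2 (−157 and −93). It was matched 1 time in each Sesn1 window and 4 times in that of Sesn3, a gene that was not higher in starved liver, but not in those of Ddit4l and Eif4ebp2. Of 32841 mouse promoter windows of the same length, 37.4% held this motif. ACGTG stood at −187 in the window of Ddit4 and at −182 in that of Eif4ebp2, and 19.6% of all windows held it. GTAAACA stood at position 23 from the upstream start of Sesn1, and 3.65% of all windows held it. TATAAA, the letters of the TATA box, was matched in the Ddit4l window only, at position 36 and so after the start (13.6% of all windows). The full palindromic glucocorticoid response element (0.00913% of all windows), the C/EBP-ATF composite TGATGNAA (3.97%) and the cyclic AMP response element TGACGTCA (1.79%), searched on both strands, were not matched in these 7 windows. A match of letters is not a measured binding site.

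The sestrins were led by Sesn1 (chromosome 10, 41809935 to 41908424, plus strand), a p53- and FOXO-induced gene whose protein binds GATOR2. Fed libraries lay close together at 20.1, 19.2, 21.6, 22.9 and 19.2 CPM, and starved libraries 1 to 5 held 21.6, 546, 26.1, 128 and 43.4 CPM. Starved liver 1 was within the fed range, livers 3 and 5 were 1.27 and 2.11 times the fed mean, and livers 4 and 2 were 6.20 and 26.5 times the fed mean. The log2 fold change was 2.89 ± 0.80 (SE), 1.42 without starved library 2 and 0.57 ± 0.17 without libraries 2 and 4. Sesn2 (chromosome 4, 132492032 to 132510501, minus strand), which senses leucine and is induced by ATF4 in stress, stood at 4.28, 5.10, 7.17, 6.13 and 5.51 CPM in fed and 8.60, 80.3, 5.31, 23.5 and 18.4 CPM in starved libraries. Starved liver 3 was within the fed range and the other 4 were above it. Its log2 fold change was 2.27 ± 0.61 (SE), and 0.93 ± 0.30 without libraries 2 and 4. Sesn3 (chromosome 9, 14275067 to 14333101, plus strand), the sestrin known as a FOXO target, went the other way. It held 7.48, 8.95, 7.10, 9.50 and 9.50 CPM in fed and 5.02, 7.48, 4.67, 4.23 and 8.06 CPM in starved libraries. Starved livers 1, 3 and 4 were below all fed livers, whereas 2 and 5 were within the fed range. The log2 fold change was −0.54 ± 0.20 (SE). Its call was lost in 11 of 19 alternatives, among them any single fed library left out, with values between −0.71 and −0.41.

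Deptor (chromosome 15, 55112317 to 55259271, plus strand), the subunit that binds and inhibits mTOR, was lower in every starved liver. It stood at 49.8, 51.5, 44.6, 53.4 and 53.1 CPM in fed and 31.5, 31.9, 35.2, 40.0 and 43.4 CPM in starved libraries. The groups did not overlap, although starved liver 5 and fed liver 3 were neighbours at 43.4 and 44.6 CPM. The log2 fold change was −0.47 ± 0.11 (SE), and −0.45 ± 0.11 without starved libraries 2 and 4.

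**Figure D2:**
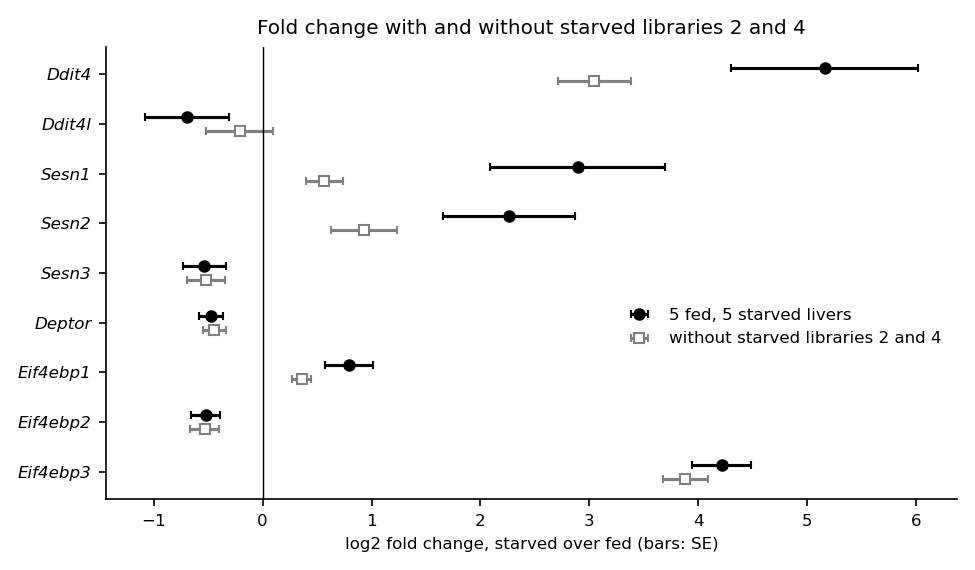
Log2 fold change of each gene, starved over fed, with its SE, from all 10 libraries (black circles) and without starved libraries 2 and 4 (open squares). Eif4ebp3 moved from 4.21 to 3.88 and Deptor, Sesn3 and Eif4ebp2 hardly moved, while Sesn1 moved from 2.89 to 0.57 and Ddit4 from 5.16 to 3.05.

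Among the 4E-binding proteins, Eif4ebp3 on chromosome 18, the least studied of the family, was the one that stood far higher in all 5 starved livers. Fed libraries held 20.6, 34.9, 30.1, 47.5 and 32.5 CPM, and starved libraries 444, 801, 546, 829 and 454 CPM. The lowest starved liver was well above the highest fed one, and each starved liver was 13.4 to 25.0 times the fed mean. The log2 fold change was 4.21 ± 0.27 (SE), and 3.88 ± 0.20 without libraries 2 and 4. In the annotation of the same build, 67.3% of the exon bases of Eif4ebp3 are shared with AC115631.1, a protein-coding model on the same strand, for which the count files hold 0 entries. Ankhd1, the gene just upstream on the same strand, was at 30.8 ± 1.35 CPM (SD, n = 5) in fed and 29.5 ± 7.43 CPM in starved liver and did not pass the test (log2 fold change −0.06 ± 0.17 SE, adjusted p = 0.801, edgeR's quasi-likelihood test).

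Eif4ebp1 (chromosome 8, 27260329 to 27276674, plus strand), the most studied mTORC1 substrate of the family and a known ATF4 target, was at 36.3, 29.4, 33.3, 36.4 and 35.8 CPM in fed and 43.3, 96.0, 43.8, 70.7 and 42.8 CPM in starved libraries. Starved livers 1, 3 and 5 lay within 1 CPM of each other and just above the fed range, and livers 2 and 4 were 2.80 and 2.06 times the fed mean. The log2 fold change was 0.79 ± 0.22 (SE), and 0.36 ± 0.09 without these 2. Eif4ebp2 (chromosome 10, 61428491 to 61452661, minus strand), the form best known from brain, was lower in every starved liver. It held 13.9, 13.6, 11.8, 11.2 and 16.0 CPM in fed and 8.29, 8.44, 8.85, 10.4 and 10.1 CPM in starved libraries. The log2 fold change was −0.52 ± 0.13 (SE), and −0.53 ± 0.13 without libraries 2 and 4.

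Levels of different genes were compared per kilobase (kb) of annotated exon. In fed liver Eif4ebp3 was highest at 44.5 ± 13.0 CPM per kb (SD, n = 5), above Eif4ebp1 at 15.6 ± 1.35, Deptor at 5.69 ± 0.41 and Sesn1 at 5.17 ± 0.41. Ddit4 (2.45 ± 1.19), Eif4ebp2 (2.30 ± 0.33), Sesn2 (1.62 ± 0.31), Sesn3 (0.56 ± 0.07) and Ddit4l (0.41 ± 0.13) followed. The fed ranges of Deptor and Sesn1, of Ddit4 and Eif4ebp2, of Eif4ebp2 and Sesn2 and of Sesn3 and Ddit4l overlapped, and the other neighbours in this order did not. In starved liver Eif4ebp3 stood at 826 ± 252 CPM per kb, above Ddit4 at 87.6 ± 102, which was in the second place here and in the fifth in fed liver. Sesn1 (38.4 ± 56.2) overlapped both Ddit4 and Eif4ebp1 (27.0 ± 10.8) in range. Within single starved livers, Sesn1 was below Ddit4 in all 5 and above Eif4ebp1 in 1 of 5 only. Sesn2 (7.83 ± 8.79) overlapped both Eif4ebp1 and Deptor (4.10 ± 0.58), but it was below Eif4ebp1 in all 5 livers and above Deptor in 3. Eif4ebp2 (1.6 ± 0.17), which overlapped neither neighbour, came before Sesn3 (0.39 ± 0.11) and Ddit4l (0.25 ± 0.14), which overlapped each other. The place of Ddit4 rested on starved livers 2 and 4: over livers 1, 3 and 5, an alternative chosen after seeing the data, it was at 20.04 ± 9.01 CPM per kb (SD, n = 3), overlapped Eif4ebp1 at 19.7 ± 0.22 and was above it in 1 of 3 livers. Over the same 3 livers Eif4ebp3 was at 647 ± 75.1, Sesn1 at 7.62 ± 2.89 and Sesn2 at 3.10 ± 1.95, below Deptor at 4.13 ± 0.68.

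The make-up of the 4E-binding protein mRNAs differed between the groups without overlap. Eif4ebp3 made 59.4% to 77.5% of the family sum per kb in fed livers (mean 70.3% ± 6.94, SD, n = 5) and 96.0% to 97.2% in starved livers (96.7% ± 0.47). Eif4ebp1 went from 25.9% ± 6.03 to 3.12% ± 0.48 although its own level was higher in starved liver, and Eif4ebp2 from 3.84% ± 1.04 to 0.20% ± 0.06. The family sum was 62.4 ± 12.9 CPM per kb in fed and 855 ± 261 in starved liver. The cap-binding protein gene Eif4e, to whose product all 3 proteins bind, rose from 45.1 ± 3.0 to 56.3 ± 5.34 CPM (log2 fold change 0.32 ± 0.10 SE, adjusted p = 0.0207, edgeR's quasi-likelihood test). That call was lost with library totals alone (0.17) and without fed library 4 (0.30) or fed library 5 (0.30). The ratio of the family sum to Eif4e, both per kb, was 5.62, 8.28, 7.69, 11.6 and 8.88 in fed and 58.3, 136, 78.0, 121 and 71.6 in starved libraries. Without Eif4ebp3 the ratio was 2.08 to 2.70 in fed livers, 1.99, 2.22 and 2.41 in starved livers 1, 3 and 5, and 5.47 and 3.59 in starved livers 2 and 4. These are ratios of mRNA, and neither protein nor phosphorylation was measured.

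Among the sestrins Sesn1 held the largest share in both groups, 70.4% ± 2.53 (SD, n = 5) in fed and 75.3% ± 9.26 in starved liver, and the ranges overlapped. Sesn3 went from 7.62% ± 1.18 to 2.36% ± 1.73, with 0.31% and 0.71% in starved livers 2 and 4. The sestrin sum was 6.77 to 8.14 CPM per kb in fed livers and 8.23 to 161 in starved livers, lowest in liver 1 and highest in liver 2.

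**Figure D3:**
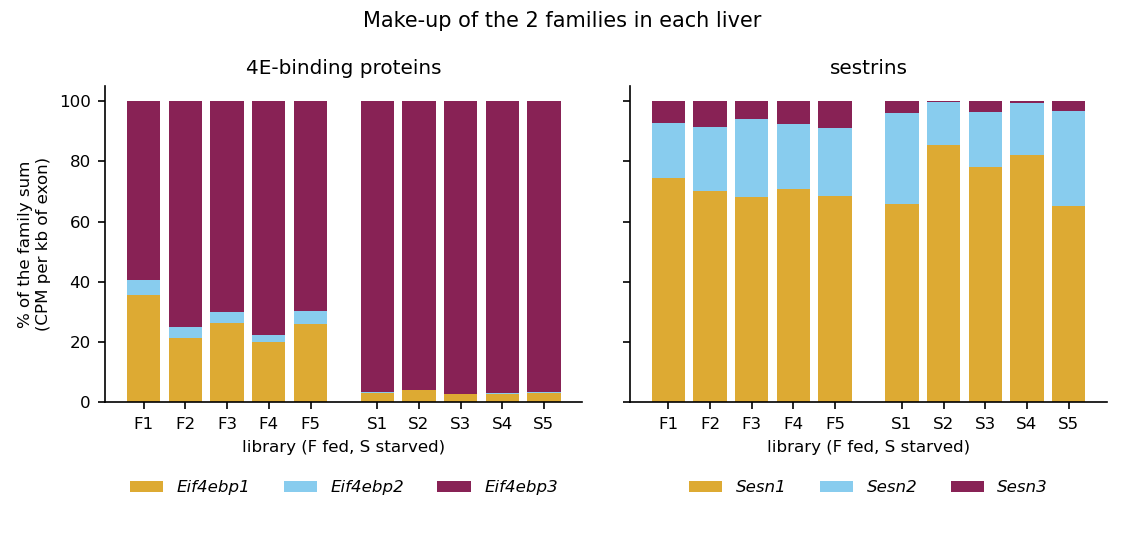
Share of each gene in the summed level of its family (CPM per kb of exon), as stacked bars from 0 to 100% for fed libraries F1 to F5 and starved libraries S1 to S5. Eif4ebp3 filled 96.0% to 97.2% of the bar in the starved livers, while the order of the sestrins was the same in all livers.

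The other genes of the pathway were taken as 7 lists by role. Of 71 tested genes outside the 9 members, 15 rose, 10 fell and 46 did not pass the test, which is 35.2% called beside 38.6% of all tested genes. Without starved libraries 2 and 4, 15 rose and 12 fell, and with library totals alone as scaling 7 rose and 13 fell. Of 10 subunits of mTORC1 and mTORC2, 1 rose and 0 fell. Mtor, the kinase, was at 43.5 ± 5.35 CPM (SD, n = 5) in fed and 40.7 ± 5.69 in starved liver, and Rptor, its substrate-recruiting partner, at 27.1 ± 1.73 and 28.1 ± 5.41 CPM. By edgeR the adjusted p was 0.573 for Mtor and 0.773 for Rptor. Akt1s1, whose product PRAS40 also inhibits mTORC1, rose from 21.7 ± 0.72 to 28.1 ± 5.50 CPM (log2 fold change 0.37 ± 0.13 SE, adjusted p = 0.0407, edgeR's quasi-likelihood test). It rose by 0.19 without starved libraries 2 and 4, which was not called, and leaving out any single fed library, starved library 4 or starved library 5 also ended the call (0.35 to 0.38), as did library totals alone (0.20), the replicate block (0.35) and no low-count filter (0.37).

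In the TSC branch, on which DDIT4 acts, Tsc2, the GTPase-activating subunit, fell from 38.6 ± 2.46 to 26.8 ± 3.89 CPM (log2 fold change −0.53 ± 0.11 SE, adjusted p = 0.00363, edgeR's quasi-likelihood test), with all 5 starved livers below all fed livers. Rheb, the GTPase that the complex keeps inactive, rose from 42.9 ± 3.50 to 59.9 ± 4.40 CPM (0.48 ± 0.09 SE, adjusted p = 0.00237, same test), again without overlap. Tsc1, the scaffold of the complex, was at 29.2 ± 0.80 and 28.2 ± 7.95 CPM and did not pass (edgeR, adjusted p = 0.846), but without starved libraries 2 and 4 it was called lower (−0.34, adjusted p = 0.0135, edgeR). Of 5 genes of this list, 1 rose and 1 fell (2 and 2 once starved libraries 2 and 4 were left out).

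In the amino acid branch, 1 of 9 tested RAG and Ragulator genes rose and 2 fell, and of 15 GATOR, folliculin and sensor genes 3 rose and 3 fell (2 and 1, and 3 and 5, without starved libraries 2 and 4). Rraga, a RAG GTPase, rose from 7.77 ± 0.18 to 11.6 ± 1.81 CPM (log2 fold change 0.57 ± 0.13 SE), while Lamtor4, a Ragulator subunit (−0.57 ± 0.15, and −0.35 without starved libraries 2 and 4), and Rragd, a partner RAG (−0.63 ± 0.21), fell. The value of Rragd was −0.34 and not called without starved libraries 2 and 4, and its call was also lost without any single fed library or any of starved libraries 2, 4 and 5 (−0.66 to −0.49). Mios and Sec13, subunits of GATOR2, the complex that sestrins bind, rose by 0.88 ± 0.20 (0.51 without starved libraries 2 and 4) and 0.39 ± 0.13, and Sec13 lost its call with library totals alone (0.24) and without any 1 of fed libraries 1, 2, 4 and 5 or starved libraries 1 and 3 (0.32 to 0.40). Fnip2 and Flcn, whose products form the folliculin complex that activates RAGC and RAGD, fell the most, Fnip2 from 82.3 ± 18.9 to 25.4 ± 4.40 CPM (log2 fold change −1.70 ± 0.17 SE, edgeR, adjusted p = 5.9e-05) and Flcn from 27.8 ± 2.17 to 16.0 ± 2.91 CPM (−0.80 ± 0.14). Of 9 genes of AMPK, the energy sensor that inhibits mTORC1, and its activator LKB1, 1 rose and 1 fell. Prkag1, a regulatory subunit, rose (0.47 ± 0.14, not called without fed library 5 or with library totals alone). Strada, a partner of LKB1 at 2.31 and 1.49 CPM, fell (−0.64 ± 0.20). The value of Strada was −0.50 and not called without starved libraries 2 and 4. Its call was also lost without fed library 4, fed library 5 or starved library 4.

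Of 13 genes whose products are substrates or outputs of mTORC1 signalling, 3 rose and 3 fell (3 and 4 without starved libraries 2 and 4). Eef2k, the kinase that slows translation elongation and that S6 kinase inhibits, fell from 13.7 ± 2.06 to 3.32 ± 0.84 CPM (log2 fold change −2.05 ± 0.20 SE, adjusted p = 4.0e-05, edgeR's quasi-likelihood test). Its 5 starved values, 1.95 to 4.17 CPM, were below all fed values, 11.4 to 15.6 CPM. Ulk2, an autophagy kinase, fell by 1.47 on the log2 scale. Maf1, a repressor of RNA polymerase III that mTORC1 inactivates, rose from 23.1 ± 2.05 to 48.5 ± 24.2 CPM (1.07 ± 0.26 SE, and 0.58 without starved libraries 2 and 4), and Rps6, the ribosomal protein that S6 kinase phosphorylates, by 0.56 ± 0.12. Rps6kb1, the S6 kinase itself, was at 28.1 ± 1.54 and 32.4 ± 2.29 CPM and did not pass (edgeR, adjusted p = 0.088), although it was called higher without starved library 2 and by DESeq2. Of 10 cap-binding and eIF4F genes 5 rose and 0 fell (4 and 0 without starved libraries 2 and 4). Besides Eif4e, Eif4a1, the RNA helicase of the complex, rose from 279.7 ± 10.9 to 460.9 ± 53.2 CPM (0.72 ± 0.10 SE), and Eif4enif1, a 4E-binding transporter of another kind, from 19.4 ± 1.94 to 31.2 ± 11.7 CPM (0.68 ± 0.20 SE, 0.37 without starved libraries 2 and 4, and not called without fed library 4).

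**Figure D4:**
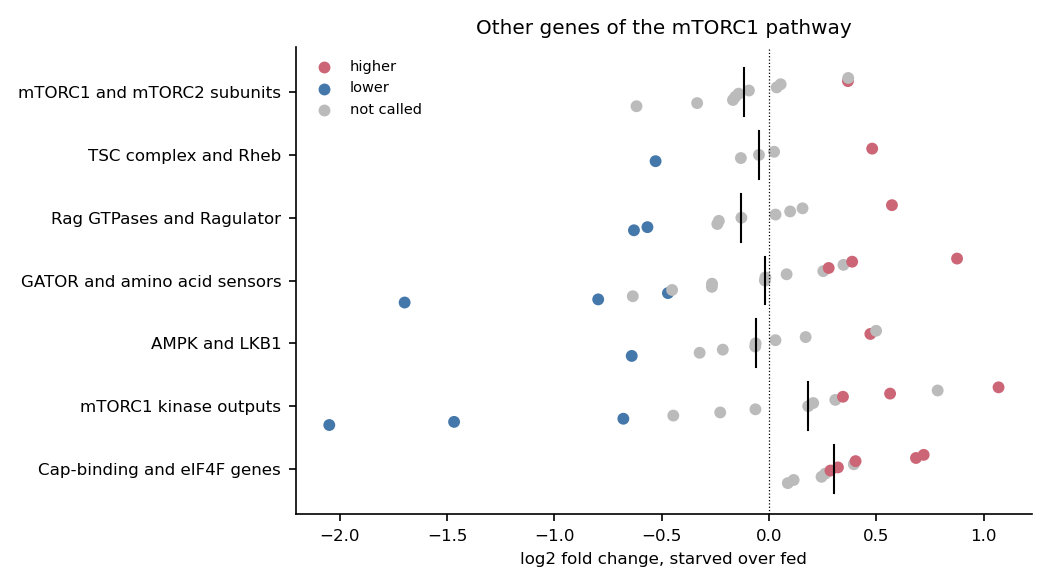
Log2 fold change, starved over fed, of the 71 tested pathway genes other than the 9 members, by role, with called genes in red (higher) or blue (lower), others in grey and the list median as a black bar. Most points lie within 0.5 of 0, and Eef2k, Fnip2 and Ulk2 are farthest to the left.

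A further 5 lists held other known targets of factors that act on the members. Of the tested glucocorticoid targets 77.8% were called in either direction, of the hypoxia targets 62.5% and of the ATF4 targets 28.6%. For the FOXO and the p53 targets the share was 50% each. Of all tested genes 38.6% were called, 18.6% higher and 20% lower. Of 9 glucocorticoid targets (Ddit4 is another) 7 rose and 0 fell, with a median log2 fold change of 1.32, and without starved libraries 2 and 4, 5 rose. Mt2, a metallothionein, was at 40.2, 31.4, 66.1, 18.1 and 67.6 CPM in fed and 186, 1872, 82.5, 540.2 and 208 CPM in starved libraries, with livers 2 and 4 highest as for Ddit4. Its log2 fold change was 3.69 ± 0.79 (SE), and 1.85 without these 2 livers. Tat, the tyrosine aminotransferase, rose by 2.38 ± 0.41 on the same scale (1.64 without them), with livers 2 and 4 highest as well. Of 8 FOXO targets outside the sestrins 4 rose and 0 fell. Igfbp1 and Pdk4 led them, at 186, 9210, 178, 3487 and 1074 CPM and at 10.04, 90.9, 10.4, 45.7 and 18.8 CPM in starved livers 1 to 5. Their log2 fold changes were 7.10 ± 1.16 and 3.50 ± 0.60 (SE), and 4.55 and 2.08 without livers 2 and 4. From highest to lowest, the starved livers ran 2, 4, 5, 3, 1 for Pdk4, for Sesn1 and for Ddit4, and 2, 4, 5, 1, 3 for Igfbp1 and for Sesn2. Mt2 and Tat also ran 2, 4, 5, 1, 3. The p53 target Btg2 and the ATF4 target Chac1 ran 2, 4, 5, 3, 1. These orders were thus not particular to the FOXO targets. The other named targets, Cdkn1a, Trib3, Atf4, Bnip3, Adm and Ankrd37, ran in other orders.

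Of 8 p53 targets outside the sestrins 4 rose and 0 fell, led by Cdkn1a, the cell cycle inhibitor (0.86 ± 0.44 to 43.2 ± 46.5 CPM, SD, n = 5), and Btg2, an antiproliferative gene (7.72 ± 1.74 to 64.6 ± 78.3 CPM). Without starved livers 2 and 4 their log2 fold changes went from 5.64 to 4.30 and from 3.06 to 1.48. Btg2 had 200 CPM in starved liver 2 against 9.80 CPM in liver 1, inside the fed range of 6.28 to 10.3. Of 7 tested ATF4 targets, Atf4 itself included, 2 rose and 0 fell, and without starved livers 2 and 4, 1 rose. Atf4 was at 107, 90.2, 102, 84.0 and 95.9 CPM in fed and 94.8, 303.5, 98.7, 124 and 90.1 CPM in starved libraries (log2 fold change 0.57 ± 0.31 SE, adjusted p = 0.159, edgeR's quasi-likelihood test). Only starved livers 2 and 4 were above the fed range, and without them the log2 fold change of Atf4 was −0.000736. Sesn2, Ddit4 and Eif4ebp1 were highest in the same livers, as were Sesn1 and Eif4ebp3, which are not on the ATF4 list. Trib3, a pseudokinase, rose by 2.07 ± 0.32 (1.84 without livers 2 and 4) with no overlap, and Chac1, a glutathione-degrading enzyme, by 1.52 ± 0.45, a call lost by limma-voom and without starved libraries 2 and 4 (0.68). Of 8 tested hypoxia targets 4 rose and 1 fell, and without starved livers 2 and 4, 3 rose and 2 fell. Bnip3, a mitophagy receptor, rose from 544.5 ± 96.4 to 1394 ± 350.4 CPM and Adm, a vasodilator peptide, from 0.70 to 1.99 CPM, while Ankrd37 fell from 1.43 to 0.72 CPM. Which of these factors acted on the members was not tested.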

How the data were processed

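The deposited files hold raw read counts per gene symbol, 1 file per liver, with the unassigned reads tallied in the last rows as HTSeq does, which stayed out of all totals. Per the submitters' processing notes the authors used build mm10 with Bowtie2 2.0.0 and TopHat2 2.0.0, HTSeq, CASAVA 1.8.2 and edgeR 3.6.4. For HTSeq the version, annotation and strand setting were not given in the sources used here, so genes that share exons with another are uncertain. Reads aligned to more than 1 place were not counted, which can lower members with close copies. They made 47.1% ± 0.78 (SD, n = 5) of all reads, assigned and unassigned together, in fed and 42.9% ± 3.68 in starved libraries.

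The counts were filtered (filterByExpr, 12796 of 23420 genes kept), scaled by TMM and tested with edgeR 4.0.16 (quasi-likelihood, R 4.3.3). P-values were adjusted over the 12796 genes by Benjamini-Hochberg, and the fit was tested on simulated data. That simulation gave both groups the same spread, so it does not cover the wider spread among the starved livers. SE is the log2 fold change divided by the square root of the F statistic. Fold changes of group means are on the scaled CPM. Levels per kb use the union of exons in GENCODE M21. Alternatives were DESeq2 1.42.0, limma-voom (limma 3.58.1), other scalings and filters, a replicate block, a threshold of 0.01 and left-out libraries. All 9 members are named; of each pathway or target list up to 2 called genes per direction with at least 1 CPM are named, with Mtor, Rptor, Tsc1, Tsc2, Rheb, Eif4e, Rps6kb1 and Atf4. Members and lists were chosen with earlier results of these data known. The labels name separate mice, and no batch is given.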

Additional observations from a re-analysis of the deposited data

Results flagged for a closer look

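For the 9 members and 35 named genes, each group of 5 livers was checked for a liver whose gap to its neighbour was over 0.71 of the whole range, and 12 of 88 were found. For independent, normally distributed values chance gives about 1 in 20 groups. That rate need not hold for CPM of chosen genes that share the same livers, so no excess is read from the count. Starved library 2 was the distant one in 8 of these 12. Among the members these were Sesn1, at 545.8 CPM beside a starved median of 43.4, and Sesn2, at 80.3 CPM beside 18.4. Among other genes, starved library 2 was highest for Atf4 (303.5 CPM, median 98.7), Mt2 (1872 CPM, median 208), Cdkn1a (124 CPM, median 20.8), Btg2 (199.6 CPM, median 44.2) and Eif4enif1 (51.7 CPM, median 25.4), and lowest for Flcn (10.9 CPM, median 16.9). The other distant values were Rps6 in starved library 5 (636.2 CPM, median 760.0) and in fed library 1 (636.2 CPM, median 484.8), Rragd in fed library 1 (5.41 CPM, median 3.89) and Eif4enif1 in fed library 4 (16.0 CPM, median 20.2). Ddit4 was not among them, since library 4 stood between library 2 and the rest.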

How the results depend on the processing

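No member changed direction in any of 19 alternatives (18 for Ddit4l, which a minimum of 1 CPM in 5 libraries removed). Ddit4 (3.05 to 5.45), Eif4ebp3 (3.88 to 4.38), Deptor (−0.63 to −0.42) and Eif4ebp2 (−0.68 to −0.45) were called in all 19. Since the members were chosen by this contrast, their calls here describe the effect of the processing and do not test the members. Limma-voom called 3 members higher, without Sesn1 and Sesn2, and a threshold of 0.01 called 2. With the replicate number as a block, 4 members were called higher (Sesn1, at 1.66, was not) and 3 lower; same-numbered libraries did not deviate together (r from −0.06 to 0.23, over 0.1 in 1 of 5 pairs), so the numbers were not taken to pair the mice. Over the pathway lists, 7 genes were called higher with library totals alone, 6 at a threshold of 0.01, and 7 to 18 with 1 library left out, 7 without fed library 4 or without fed library 5. Library totals shifted the median of all genes by −0.15 and called 1490 genes higher and 3490 lower in place of 2379 and 2555; at 0.01 the counts were 1272 and 1526. The cause of these shifts was not tested. Shares of Eif4ebp3 and Sesn1 in their families moved by less than 1 SD with longest-transcript lengths (Eif4ebp3 68.6% in fed and 96.4% in starved liver, Sesn1 68.0% and 75.0%). Depth limits Ddit4l, at 4 to 44 reads.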

Other observations

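The genes whose levels followed a member most closely over the 10 livers were picked by the root mean square difference of their centred log2 levels, as a description without a test. For Ddit4 they were Slc4a9, an anion exchanger (difference 0.57), Lepr, the leptin receptor (0.57), and Cyp2b10, a cytochrome P450 (0.62), beside 2.43 for the size of the pattern of Ddit4 itself. Lepr was at 36.0, 1058, 69.3, 967 and 108 CPM in starved livers 1 to 5, so that livers 2 and 4 stood out as for Ddit4. For Eif4ebp3 they were Apoa4, an apolipoprotein (0.43), Gadd45b, a stress-induced gene (0.43), and Cyp2b10 (0.47), beside 2.13 for Eif4ebp3. Apoa4 was at 230 to 316 CPM in fed livers and at 3524, 6303, 4285, 6665 and 1601 CPM in starved livers, all 5 above the fed range.

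For Sesn2 they were Jun, an AP-1 subunit (0.28), Txnip, a thioredoxin-binding protein (0.29), and Irs2, an insulin receptor substrate (0.29), beside 1.22 for Sesn2. Jun was at 5.03 to 6.72 CPM in fed livers and at 6.11, 77.2, 5.85, 18.0 and 18.5 CPM in starved livers, so that livers 2, 4 and 5 were above and liver 3 within the fed range as for Sesn2, while liver 1 was within it for Jun and above it for Sesn2. For Eif4ebp1 they were Esrra, an orphan nuclear receptor (0.10), Pi4ka, a phosphatidylinositol kinase (0.10), and Arih2, a ubiquitin ligase (0.11), beside 0.49 for Eif4ebp1. Esrra was at 45.5, 103, 48.6, 75.0 and 43.1 CPM in starved livers 1 to 5, with livers 2 and 4 highest.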
